A study of Homo sapiens with 6 samples.

Results

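The genes described here are the 8 that write, maintain and remove DNA methylation: the methyltransferases DNMT1, DNMT3A and DNMT3B, the maintenance cofactor UHRF1, the dioxygenases TET1, TET2 and TET3, and the glycosylase TDG. They were taken by symbol from a table of raw counts for 16199 genes, and 8 of 8 were found. RNA was sequenced from H1, an established human embryonic stem cell line, in 6 libraries. Of these, 2 came from the wild-type line, 2 from cells hemizygous and 2 from cells homozygous for S1344L, a DICER1 change introduced with CRISPR-Cas9. Below, the libraries of a genotype are called its pair and are given in the order replicate 1, then replicate 2. DICER1 cuts microRNA precursors, and S1344L is a cancer hotspot change. It is not stated whether the 2 libraries of a genotype came from separate clones or cultures, nor what became of the other DICER1 allele of the hemizygous cells, so p-values measure only the spread between these libraries.

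Cytosine methylation at CpG sites silences germline genes, imprinted alleles and repeats. DNMT3A and DNMT3B place new methyl groups, and DNMT1 copies them onto the new strand at replication, brought to hemimethylated DNA by UHRF1. TET enzymes oxidise 5-methylcytosine, and TDG excises the oxidised bases so that repair can restore cytosine. Human embryonic stem cells are known for high DNMT3B and TET1. In mouse embryonic stem cells, loss of Dicer is known to lower the de novo methyltransferases through microRNAs that restrain the pocket protein RBL2, and the miR-29 family is known to target methyltransferase and TET transcripts.

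Because the edited enzyme makes microRNAs, the 3′ UTRs of the 8 genes were searched for 7-base matches to positions 2 to 8 (the seed) of 8 mature microRNAs that stem cells express or that are known to act on these genes. The miR-302a and miR-372 sequences share 1 seed. The mature sequences below, from RefSeq (GRCh38.p14), carry the seed in capitals.
hsa-miR-302a-3p: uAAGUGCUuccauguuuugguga
hsa-miR-372-3p: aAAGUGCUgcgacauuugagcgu
hsa-miR-29b-3p: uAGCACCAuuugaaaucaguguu
hsa-miR-26a-5p: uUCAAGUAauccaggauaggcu
hsa-miR-148a-3p: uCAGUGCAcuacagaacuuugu

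The miR-29 match TGGTGCT stood in 6 of the 8 3′ UTRs, all but those of DNMT1 and UHRF1, and in 14.5% of 13184 3′ UTRs searched on the sense strand. These counts depend on length, so each member was set beside 3′ UTRs within 25% of its own length. TET3, with 6000 bases of 3′ UTR, held 10 matches and was the 1 of 784 3′ UTRs of like length (0.128%) with as many; these shares include the member itself. TET2 and DNMT3A held 4 each, as many as 0.284% and 0.852% of 3′ UTRs of like length, and TET1 and TDG held 3 each (0.655% and 0.232%). DNMT3B held a single match in 1453 bases, and 13.8% of 3′ UTRs of like length held at least 1. The miR-26 match TACTTGA stood in 5 members and in 12% of all 3′ UTRs searched. TET2 and TET3 held 3 of these matches each, as many as 0.227% and 1.91% of 3′ UTRs of like length, while 39.2% of those like DNMT3A in length held at least 1, as DNMT3A did. The miR-302 match AGCACTT stood in 5 members and in 21.3% of 3′ UTRs of all lengths. Among 3′ UTRs of like length at least 1 such match was in 64.6% for DNMT3A, 62.0% for TET3, 41.3% for TET2, 37.3% for TET1 and 19.3% for UHRF1, so a match was common at the length of the DNMT3A and TET3 3′ UTRs. DNMT3A, TET3 and TET2 held 2 miR-302 matches each, as many as 31.4%, 28.8% and 11.1% of 3′ UTRs of like length. The miR-302 match overlaps by 6 bases the miR-17 match GCACTTT, which was found in 4 members and in 21.8% of all 3′ UTRs. DNMT1, whose annotated 3′ UTR has 127 bases in the transcript used, held 1 match, to miR-148a. The miR-92a match GTGCAAT was in no member and the let-7 match CTACCTC was in TET3 alone. A match is a run of letters and not a measured site, and microRNA levels were not analysed here. Some of the microRNAs were chosen as known to act on these genes, so low shares for them are not independent evidence of targeting. The windows below show the single matches of DNMT3B, DNMT1 and UHRF1, and examples from the TET genes and TDG, with the match in capitals and the surrounding bases in lower case, in GENCODE release 29 transcripts (GRCh38).
DNMT3B, miR-29, chr20:32809093-32809122, plus strand: tactcttcttacTGGTGCTattttgtagaa
TET3, miR-29, chr2:74106636-74106665, plus strand: ctgctttttagtTGGTGCTaacctaaattt
TET1, miR-29, chr10:68692085-68692114, plus strand: aatcactcagttTGGTGCTttaaattaagt
TDG, miR-29, chr12:103988142-103988171, plus strand: atgagttttccaTGGTGCTacaaataatcc
DNMT3A, miR-29, chr2:25233400-25233429, minus strand: ccgacttcataaTGGTGCTttcaaacagcg
TET2, miR-26, chr4:105279438-105279467, plus strand: actatatagccaTACTTGAaaatgcttctg
TET1, miR-302, chr10:68692422-68692451, plus strand: atatattttaaaAGCACTTtctatttttaa
UHRF1, miR-302, chr19:4960804-4960827, plus strand: tctccaAGCACTTctcgacaggcg
DNMT1, miR-148a, chr19:10133602-10133631, minus strand: gaatccccaacaTGCACTGatgttgtgttt

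In GRCh38 the genes lie at chr19:10133345-10231286 (DNMT1, minus strand), chr2:25227855-25342590 (DNMT3A, minus), chr20:32762385-32809356 (DNMT3B, plus) and chr19:4903080-4962154 (UHRF1, plus). The TET genes and TDG, all on the plus strand, lie at chr10:68560656-68694482 (TET1), chr4:105145875-105279816 (TET2), chr2:73986404-74108176 (TET3) and chr12:103965804-103988874 (TDG). Each gene has 1 count per library.

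The libraries held 38164848 to 52924532 counts. All 11 pluripotency markers looked for were in the table, with summed levels of 8259 to 9454 CPM (counts scaled to the effective library size). None of 8 neural ectoderm markers was in it, and 3 of 8 mesoderm, 2 of 8 endoderm and 2 of 8 trophoblast and amnion markers were, with sums of at most 9.97, 6.36 and 23.6 CPM. A gene absent from the table cannot be read as lacking RNA, since the table may leave out genes of low counts. Of 8 fibroblast markers COL1A1, COL1A2, THY1 and PDGFRB were in the table, summing to 629 to 861 CPM, while COL3A1, DCN, LUM and TWIST1 were not. Much of that sum came from THY1, at 333 to 468 CPM, and the sum does not by itself show that fibroblasts were present. DICER1 lay between 96.4 and 169 CPM, and a count per gene does not show the point change. Libraries with the same replicate number resembled each other across genotypes, except homozygous 1. By chi-square per degree of freedom (lower is more alike), homozygous 1 stood at 28.7 from wild type 2 and 28.4 from hemizygous 2. From wild type 1 and hemizygous 1 it stood at 58.3 and 55.7. The replicate number bears on several of the genes below.

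DNMT3B was the most abundant of the 8 genes and TET2 the least. In bulk RNA, fewer cells expressing a gene and less RNA per cell cannot be told apart. Per kilobase of annotated exons, the mean RPKM (CPM per kilobase) over the 6 libraries was 519 ± 62.7 (SD, n = 6) for DNMT3B, a level above that of 99.7% of 13265 protein-coding genes in the table. TET1 followed at 24.4 ± 7.51 and DNMT1 at 21.2 ± 1.55 RPKM, and their ranges over libraries overlapped. DNMT3A was at 13.9 ± 0.847 and TDG at 11.3 ± 1.75 RPKM, again with overlapping ranges. UHRF1 was at 5.47 ± 1.09 and TET3 at 3.53 ± 0.599 RPKM, close but without overlap (lowest UHRF1 4.35, highest TET3 4.23). TET2 was at 0.0649 ± 0.0149 RPKM. With annotated exons as the length, DNMT3B supplied 92.7% to 94.6% of the summed methyltransferase RPKM, and TET1 83.6% to 89.3% of the summed TET RPKM. These shares were not computed with the longest transcript. Taking the longest transcript as the length raised DNMT1 to 38.4 RPKM, above TET1, whose 24.4 did not change, and TDG to 17.0, next to DNMT3A at 17.6. The count does not separate isoforms, so catalytically inactive splice forms of DNMT3B are included.

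**Figure D1:**
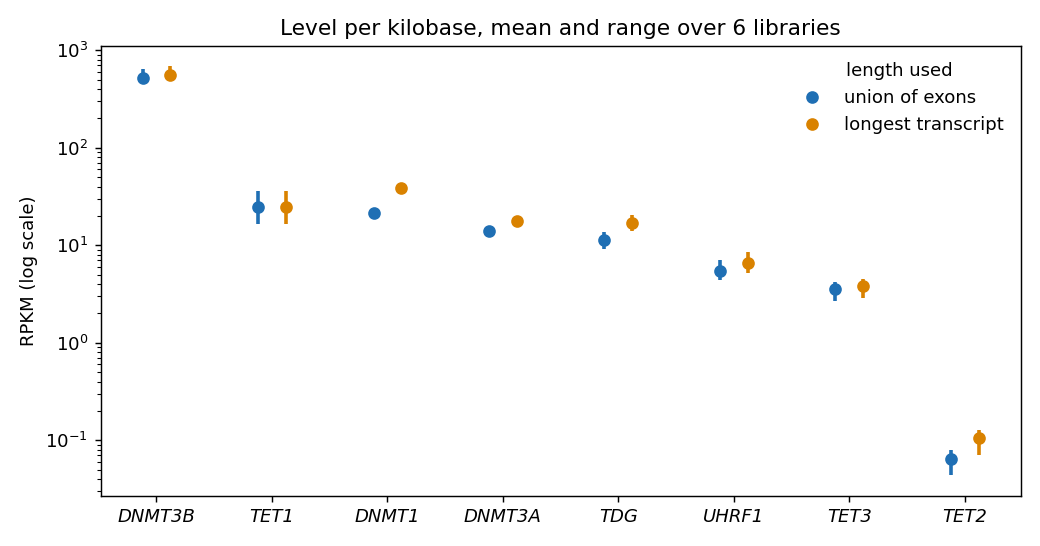
Level per kilobase of each gene on a log scale, as the mean (point) and the range (line) over 6 libraries, with length taken as the union of annotated exons or the longest transcript. DNMT3B (mean 519 RPKM) stands above the other genes and TET2 (0.0649 RPKM) below them, and DNMT1 and TET1 change places with the length used.

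Among the de novo enzymes, DNMT3B was at 2453 and 2157 CPM in the wild-type pair, 2959 and 2328 in the hemizygous pair, and 2214 and 2313 in the homozygous pair. Hemizygous 1 stood above the other 5 libraries, which lay between 2157 and 2453 CPM, and hemizygous 2 lay between the wild-type libraries. Against wild type, hemizygous cells had a log2 fold change of 0.20 ± 0.16 (SE; 95% interval -0.18 to 0.58) and homozygous cells one of -0.03 ± 0.16 (-0.41 to 0.36), with edgeR adjusted p = 1.00 for both. Both homozygous libraries were below both hemizygous ones, at a log2 fold change of -0.22 ± 0.16 (edgeR adjusted p = 1.00). Such an order without overlap was seen in 10.4% of all genes in that comparison.

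DNMT3A, the other de novo enzyme, was at 149.8 and 169 CPM in the wild-type pair, 165 and 168 in the hemizygous pair, and 182 and 167 in the homozygous pair. Wild type 1 was the lowest and homozygous 1 the highest, and the 3 groups overlapped. The log2 fold changes were 0.06 ± 0.13 (SE) in hemizygous and 0.13 ± 0.13 in homozygous cells (edgeR adjusted p = 1.00 for both). Their 95% intervals reached from -0.25 to 0.37 and from -0.18 to 0.44. In linear terms the upper bound was a 1.36-fold rise for homozygous cells.

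DNMT1, the maintenance enzyme, was at 214 and 210.5 CPM in the wild-type pair, 221 and 203 in the hemizygous pair, and 219 and 180.0 in the homozygous pair. All but homozygous 2 lay above 200 CPM, and the genotypes overlapped. The estimated log2 difference from wild type was -0.00 ± 0.14 (SE; 95% interval -0.35 to 0.34) for hemizygous and -0.09 ± 0.14 (-0.43 to 0.26) for homozygous cells, with edgeR adjusted p = 1.00 for both. UHRF1, which recruits DNMT1, was at 32.5 and 25.9 CPM in the wild-type pair, 36.7 and 23.0 in the hemizygous pair, and 28.5 and 22.4 in the homozygous pair. In each genotype replicate 1 was the higher, and no genotype stood apart, while between libraries of the same number the homozygous level was below wild type for both. Its log2 fold changes were 0.03 ± 0.26 and -0.20 ± 0.26 (edgeR adjusted p = 1.00 for both).

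TET1, the most abundant TET transcript, was at 276 and 182 CPM in the wild-type pair, 332 and 174 in the hemizygous pair, and 248 and 151.6 in the homozygous pair. The 3 libraries numbered 1 were all above the 3 numbered 2, as for DNMT1, UHRF1 and TDG and for 20.9% of all genes. The genotypes overlapped. Against wild type, hemizygous cells had a log2 fold change of 0.14 ± 0.38 (SE; 95% interval -0.76 to 1.04) and homozygous cells one of -0.20 ± 0.38 (-1.10 to 0.70), with edgeR adjusted p = 1.00 for both. These were the widest intervals among the 8 genes in both comparisons. Without hemizygous 1 the hemizygous value was -0.39, without wild type 1 the homozygous value was 0.14, and neither passed. Between libraries of the same number, homozygous TET1 was below wild type for both numbers, and hemizygous TET1 was above it for number 1 and below it for number 2.

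TET2 and TET3 had lower means in both edited genotypes than in wild type, and neither passed the test. TET2 had few counts, 67 and 49 for the wild-type pair, 37 and 38 for the hemizygous pair, and 59 and 36 for the homozygous pair. In CPM these were 1.29 and 1.25, 0.965 and 0.721, and 1.30 and 0.886. Both hemizygous libraries were below both wild-type ones (9.21% of all genes were so ordered), and the log2 difference was -0.60 ± 0.34 (SE; 95% interval -1.41 to 0.20; edgeR adjusted p = 1.00). Counting error alone, by exact Poisson intervals, spanned 0.927 to 1.66 CPM in wild type 2 and 0.679 to 1.33 CPM in hemizygous 1, which overlapped. It spanned 1.00 to 1.64 CPM in wild type 1 and 0.510 to 0.990 CPM in hemizygous 2, which did not. The homozygous libraries of TET2 spanned the gap, and their log2 fold change was -0.22 ± 0.33 (adjusted p = 1.00).

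TET3 was at 48.7 and 46.2 CPM in the wild-type pair, 51.9 and 36.2 in the hemizygous pair, and 44.1 and 32.9 in the homozygous pair. Both homozygous libraries were below both wild-type ones, an order that 13.6% of all genes shared. The estimated log2 difference from wild type was -0.30 ± 0.22 (SE; 95% interval -0.83 to 0.22) for homozygous and -0.11 ± 0.22 (-0.63 to 0.41) for hemizygous cells, with edgeR adjusted p = 1.00 for both. In linear terms the homozygous level was 0.811 times that of wild type, with an interval of 0.564 to 1.16.

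TDG, which removes the oxidised bases, was at 66.5 and 45.3 CPM in the wild-type pair, 63.6 and 51.2 in the hemizygous pair, and 57.1 and 48.1 in the homozygous pair. The wild-type libraries were the highest and the lowest of the 6, and both edited genotypes lay between them. The log2 fold changes were 0.04 ± 0.22 (SE) and -0.09 ± 0.22 (edgeR adjusted p = 1.00 for both). TDG has processed pseudogenes, and TDGP1 was listed at 0.721 to 1.74 CPM, so that a small share of reads may be placed with a copy.

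**Figure D2:**
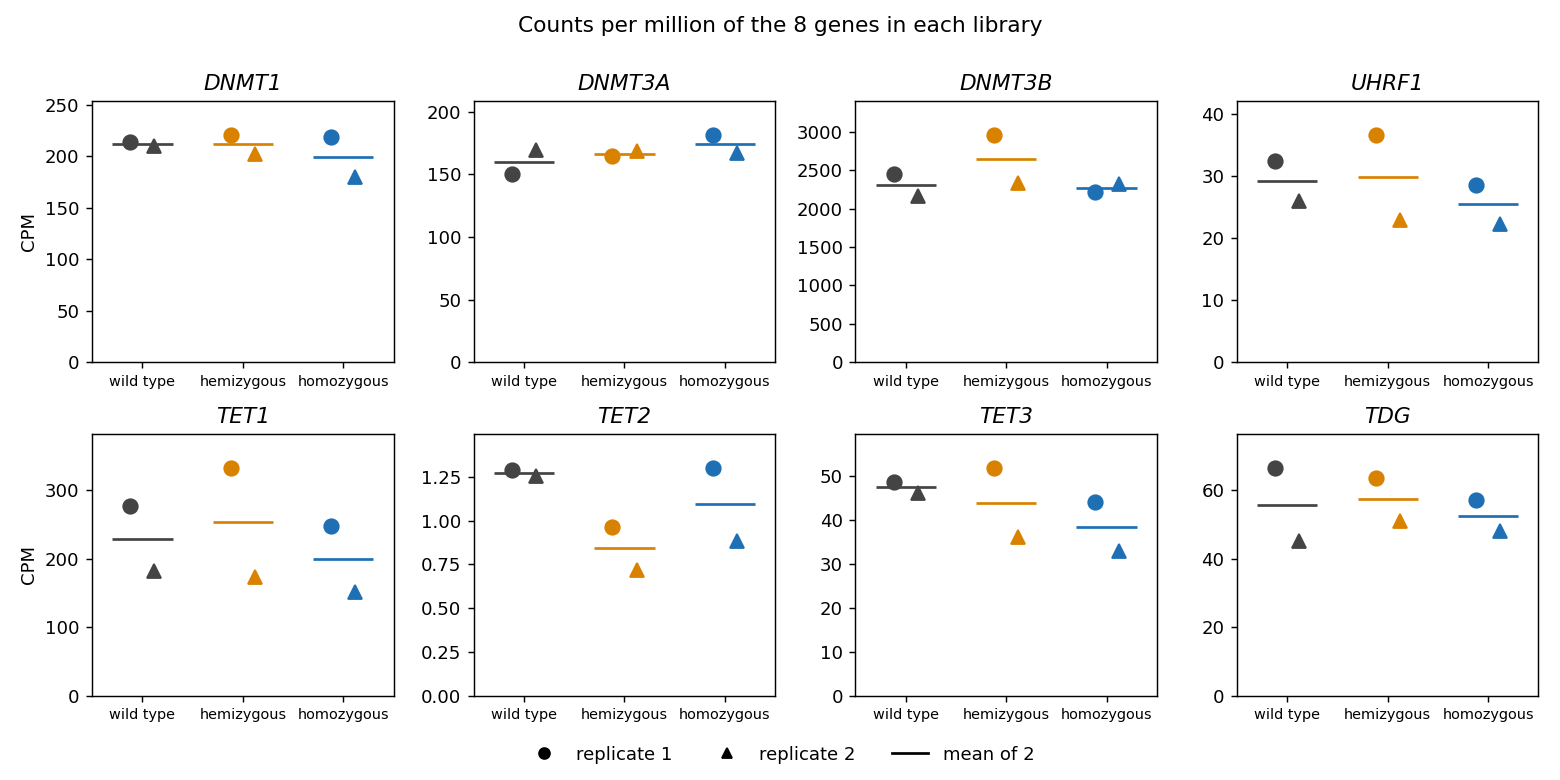
CPM of the 8 genes in each library, with replicate 1 as circles, replicate 2 as triangles and the mean of the 2 libraries of a genotype as a line. TET1, UHRF1 and TDG have the circle above the triangle in each genotype, and DNMT3B is highest in hemizygous 1 at 2959 CPM.

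Over the 8 genes, 5 log2 fold changes were above 0 in hemizygous cells (median 0.03) and 1 in homozygous cells (median -0.14), against medians of -0.00 in both comparisons over all 16199 genes. Both comparisons share the wild-type libraries. edgeR called 0 of 8 members in either, where it called 0 of all genes (0%), and 0 members reached an unadjusted p under 0.05, as 0.87% and 2.69% of all genes did. For homozygous against hemizygous cells it also called 0 members and 0 genes (0%), with 0 members and 0.765% of genes at an unadjusted p under 0.05. DESeq2 called 7, 10 and 10 genes in the 3 comparisons and none of the members. The intervals, from the fit without the replicate number, do not show that levels were alike: for TET1 they ran from 0.591 to 2.06 times the wild-type level in hemizygous and from 0.466 to 1.63 times in homozygous cells. The fibroblast markers in the table, much of their sum from THY1, summed to 861 and 789 CPM in the wild-type pair, 823 and 706 in the hemizygous pair, and 629 and 676 in the homozygous pair. S-phase genes were below 0 in 14 of 18 in homozygous cells (median -0.11) and 10 of 18 in hemizygous cells (median -0.00). Pluripotency markers were above 0 in 10 of 11 in hemizygous (median 0.15) and 8 of 11 in homozygous cells (median 0.13). The part of these lists in the members' values was not tested.

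**Figure D3:**
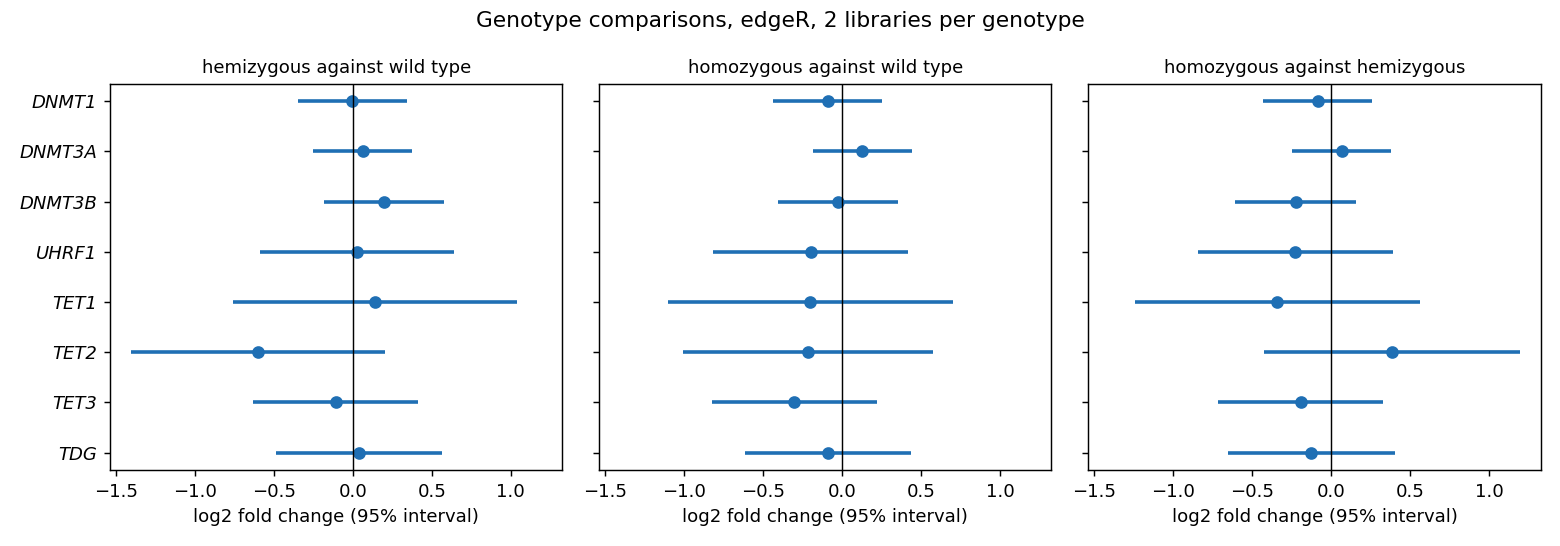
log2 fold change of each gene in the 3 genotype comparisons, as the edgeR estimate (point) with its 95% interval (line). Each of the 24 intervals includes 0, the widest being those of TET1 and TET2.

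TET1, UHRF1 and TDG were higher in the libraries numbered 1. With genotype in the model, TET1 was 1.68-fold higher in replicate 1 than in replicate 2 (log2 0.75 ± 0.09, SE; edgeR adjusted p = 0.0120), UHRF1 1.37-fold (0.45 ± 0.10; adjusted p = 0.0240) and TDG 1.29-fold (0.37 ± 0.09; adjusted p = 0.0288). Each was higher in replicate 1 in 3 of 3 genotypes. The TET1 ratio was 1.51 for the wild-type pair, 1.91 for the hemizygous pair and 1.63 for the homozygous pair, and the UHRF1 ratios were 1.25, 1.60 and 1.27. edgeR called 20.5% of all genes in this comparison, 12% as higher and 8.5% as lower in replicate 1, and 38.6% had an unadjusted p under 0.05. The comparison was added after the values had been seen, and the labels do not say what the number marks.

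TET3 was 1.26-fold higher in replicate 1 (log2 0.34 ± 0.10, SE; edgeR adjusted p = 0.0553), and TET2 and DNMT1 were also higher in 3 of 3 genotypes without passing (edgeR adjusted p = 0.304 and 0.222). DNMT3B was higher in replicate 1 in 2 genotypes (log2 0.16 ± 0.10; adjusted p = 0.291) and DNMT3A in 1 (-0.03 ± 0.08; adjusted p = 0.813). Thus 6 of 8 members were higher in replicate 1 in 3 of 3 genotypes, as 29.9% of all genes were, and 0 were lower throughout. Without the wild-type or the hemizygous pair, 0 members passed (lowest edgeR adjusted p = 0.0648 and 0.0801), where 0 and 2 of all 16199 genes did, while the log2 value of TET1 stayed between 0.64 and 0.81. Without the homozygous pair 4 members passed, as did 6252 of all genes. Of 18 S-phase genes, measured beside them because UHRF1 and DNMT1 act at replication, 9 were higher in replicate 1 in 3 of 3 genotypes and 0 lower, with a median log2 difference of 0.15. The endoderm markers CXCR4 and AFP summed to 6.19, 6.36 and 2.84 CPM in the libraries numbered 1 and to 1.64, 2.09 and 2.31 in those numbered 2. The trophoblast and amnion markers KRT7 and GABRP were both lower in replicate 1 in 3 of 3 genotypes (median log2 difference -0.57), as were 2 of 3 mesoderm markers (median over the 3 of -0.53). The part of these lists in the differences was not tested.

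**Figure D4:**
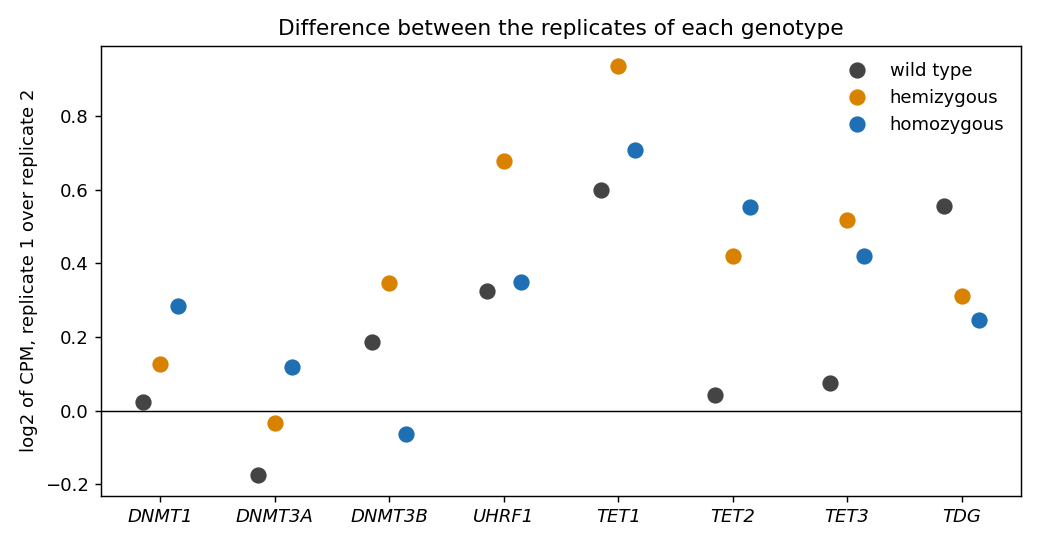
log2 ratio of CPM in replicate 1 over replicate 2 for each gene, 1 point per genotype. The 3 points of TET1, UHRF1, TDG, TET3, TET2 and DNMT1 lie above 0, and those of DNMT3A and DNMT3B lie on both sides of it.

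Transcript length moved with the same difference. The median log2 difference, replicate 1 over replicate 2, was -0.16 for 3667 genes whose longest transcript is under 2000 bases and 0.22 for 1320 genes of 8000 bases or more. In the second class, which holds TET1, TET2, TET3 and DNMT3A, 54.6% of genes were higher in replicate 1 in 3 of 3 genotypes and edgeR called 32.7% as higher. TET1 (0.75) was above that class's median, TET2 (0.33) and TET3 (0.34) were nearer to it, and DNMT3A (-0.03) was below it. UHRF1 (0.45) belongs to the class of 4000 to 6000 bases, with a median of 0.08, and TDG (0.37) to the class of 2000 to 4000 bases, with a median of -0.03. The part of transcript length in these differences was not tested.

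**Figure D5:**
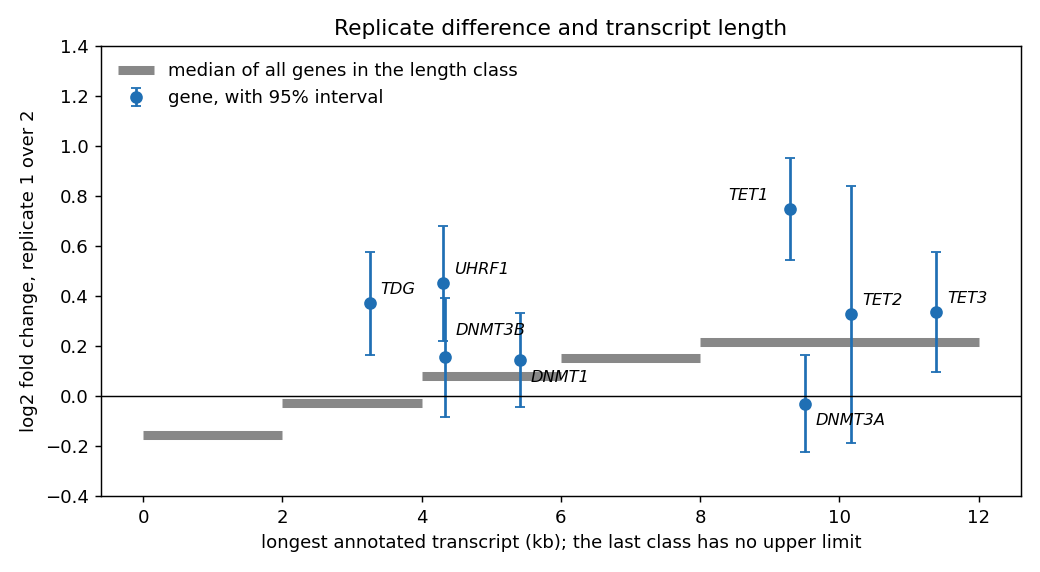
log2 difference between replicate 1 and replicate 2 against the longest annotated transcript of each gene, with 95% intervals. Grey bars give the median of all genes in 5 length classes, from -0.16 in the shortest to 0.22 in the longest, and TET1 lies above its class at 0.75.

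The genes whose profiles over the 6 libraries were most like those of 3 members were found by the root-mean-square difference of centred log2 CPM, among 9914 genes of at least 10 CPM. For DNMT3B they were INPP5F (0.0263), FBXW7 (0.0301) and SANBR (0.0336), against a spread of 0.164 (SD) in DNMT3B itself. For DNMT1 they were PDSS2 (0.0140), GDI2 (0.0169) and RHPN2 (0.0209). For TET1 they were IGF2R (0.0411), AFF4 (0.0425) and RALGAPA2 (0.0481), against a spread of 0.440 in TET1. The longest transcripts of these 3 have 14044, 9552 and 8769 bases, and that of TET1 has 9288. These are descriptions over 6 libraries that share the replicate pattern.

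RBL2, the pocket protein of the mouse Dicer pathway named above, was at 75.9 and 73.8 CPM in the wild-type pair, 66.4 and 74.2 in the hemizygous pair, and 70.5 and 80.9 in the homozygous pair. The genotypes overlapped, and its log2 fold changes were -0.09 ± 0.14 (SE) and 0.02 ± 0.14 (edgeR adjusted p = 1.00 for both; 95% intervals -0.42 to 0.24 and -0.31 to 0.34). Of 10 genes measured among the pocket proteins, E2F factors and their partners, 3 were above 0 in hemizygous and 4 in homozygous cells, and 0 passed. The furthest from 0 in both was TFDP1, an E2F partner, at -0.19 ± 0.23 and -0.41 ± 0.23 (SE; edgeR adjusted p = 1.00).

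E2F factors are known to drive genes of replication, so the promoters of the 8 genes in the RefSeq set (300 bases around each annotated start, most of them before it; GRCh38.p14) were searched on both strands for TTTCCCGC, TTTCGCGC, TTTGCCGC and TTTGGCGC, which together spell the core of the E2F site. Of 35116 promoters 3.31% held one. Of 19 promoters of the members 3 did, 1 of DNMT1 and 2 of UHRF1, the maintenance pair, and those of the other 6 genes did not. Each match is in capitals below on the gene's strand.
DNMT1, match starting 2 bases before the start, chr19:10194937-10194966, minus strand: catcggtttccGCGCGAAAagccggggcgc
UHRF1, match starting 14 bases before a start, chr19:4909476-4909505, plus strand: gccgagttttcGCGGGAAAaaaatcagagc
UHRF1, match starting 160 bases before another start, chr19:4909973-4910002, plus strand: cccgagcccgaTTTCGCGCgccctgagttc

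The partners of these enzymes gave no call. Of 17 measured methylation cofactors 9 were above 0 in hemizygous (median 0.00) and 5 in homozygous cells (median -0.07). NSD2, which writes the H3K36 methylation that DNMT3A and DNMT3B can read, was at 157 and 168 CPM in the wild-type pair, 144 and 142 in the hemizygous pair, and 117 and 119 in the homozygous pair, so that the 3 genotypes did not overlap. The log2 difference from wild type was -0.46 ± 0.12 (SE) in homozygous and -0.19 ± 0.12 in hemizygous cells, with edgeR adjusted p = 1.00 for both. In homozygous cells it was the 1 cofactor of 17 at an unadjusted p under 0.05, as 2.69% of all genes were. Both libraries lay below both of the other genotype in 9.21% of all genes for hemizygous against wild type, 13.6% for homozygous against wild type and 10.4% for homozygous against hemizygous cells.

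Of 7 methyl-CpG binding genes 2 were above 0 in hemizygous and 4 in homozygous cells. ZBTB38, a methyl-CpG binding zinc-finger gene, had a log2 fold change of -0.61 ± 0.36 (SE; edgeR adjusted p = 1.00) in homozygous cells, which were at 12.8 and 10.8 CPM against 23.2 and 12.9 in wild type. The hemizygous ZBTB38 pair was at 22.8 and 12.7 CPM, near the wild-type pair, and replicate 1 was the higher in each genotype. Of 19 TET partners and base excision genes 3 were above 0 in hemizygous (median -0.07) and 8 in homozygous cells (median -0.03). CXXC4, whose protein can bind TET2, was at 1.85 and 1.92 CPM in the wild-type pair, 1.36 and 1.16 in the hemizygous pair and 1.26 and 1.28 in the homozygous pair, with log2 fold changes of -0.59 ± 0.27 and -0.57 ± 0.27 (edgeR adjusted p = 1.00 for both). Of 21 methyl donor and 2-oxoglutarate genes 6 and 8 were above 0, with IDH1, which makes the 2-oxoglutarate that TET enzymes use, at 0.20 ± 0.24 in hemizygous cells and PSAT1, of serine synthesis, at -0.38 ± 0.23 in homozygous cells (log2 differences, SE; edgeR adjusted p = 1.00 for both).

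Germline genes known to be silenced by promoter methylation were listed beside the machinery. Not all were silent in these cells. TEX15 and PIWIL2, named after their values were seen, were at 56.4 and 22.0 CPM and at 26.4 and 25.6 CPM in the wild-type pair. Of 28 listed 14 were in the table, 10 above 0 in hemizygous (median 0.23) and 11 in homozygous cells (median 0.39), and edgeR called 0. At an unadjusted p under 0.05 there were 2 of these 14 genes in hemizygous cells, DAZL and REC8, and 3 in homozygous cells, the same genes and SOHLH2 (log2 fold change 0.60 ± 0.22, SE), which was named after its value was seen. Of all genes, 0.87% and 2.69% were under it. DAZL, an RNA-binding protein of germ cells, was at 3.10 and 2.79 CPM in the wild-type pair, 4.07 and 5.81 in the hemizygous pair, and 4.56 and 6.79 in the homozygous pair. The 4 edited libraries were all above the wild-type ones and replicate 2 was the higher in both edited genotypes, with log2 fold changes of 0.75 ± 0.30 (SE) and 0.94 ± 0.30 (edgeR adjusted p = 1.00 for both). Both libraries were higher than both wild-type ones in 8.13% of all genes for hemizygous and 14.2% for homozygous cells. DMRTB1, a germline transcription factor, had a log2 fold change of 0.96 ± 0.57 (SE; edgeR adjusted p = 1.00) in homozygous cells. REC8, a meiotic cohesin subunit, was at 0.501 and 1.82 CPM in the wild-type pair, 0.130 and 0.0759 in the hemizygous pair, and 5.22 and 2.49 in the homozygous pair, with log2 fold changes of -3.48 ± 0.84 (SE) and 1.76 ± 0.64 (edgeR adjusted p = 1.00 for both). In hemizygous cells REC8 lay below the lowest TET2 level, 0.721 CPM from 38 counts, so its hemizygous value rests on few reads. Of the 14 genes, 6 were lower and 2 higher in replicate 1 in 3 of 3 genotypes, against 28.3% and 29.9% of all genes, and edgeR called 6 of the 14 by replicate number, against 20.5% of all genes. Methylation itself was not measured here, and the 14 listed genes outside the table were not analysed here.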

How the data were processed

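RNA-seq of 6 libraries of H1 cells was analysed from the deposited table of raw counts per gene (whole numbers, not normalized). Per the submitters' processing notes, reads were trimmed with cutadapt and aligned with HISAT2 to hg38. For the counting program and its annotation nothing was given in those sources. Per the labels' protocols the kit was TruSeq RNA v2, so strands were taken as not separated; the only annotated overlap with exons of a member was S1PR2 with DNMT1 (0.847% of DNMT1 exon length). GENCODE release 29 matched 15893 of 16199 genes and gave lengths and 3′ UTRs (of the transcript with the longest coding sequence). Genotypes were compared with edgeR 4.0.16 (TMM, filterByExpr, which removed 0 genes, quasi-likelihood test, all 6 libraries, 3 residual degrees of freedom) in R 4.3.3, with Benjamini-Hochberg adjustment over all genes and a threshold of 0.05. Standard errors were derived from edgeR's quasi-likelihood F statistic, as the absolute log2 fold change over the square root of F. The 95% intervals use these and edgeR's total degrees of freedom. The script was tested on simulated data. DESeq2 1.42.0 was an alternative. No 2 libraries were copies (chi-square per degree of freedom at least 11.5). Reads carried no molecular identifiers, so Poisson intervals cover counting error only. The members and lists were chosen with earlier results of these data known. Named were the 8 members, RBL2, up to 2 genes per list with the largest changes against wild type at a mean CPM of at least 1, some of them given only by their list's counts, and the 3 genes most like each of 3 members. Figures were drawn with matplotlib 3.10.9.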

Additional observations from a re-analysis of the deposited data

How the results depend on the processing

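None of the 24 genotype values of the members passed the threshold in any alternative run (DESeq2, DESeq2 size factors in edgeR, both filters, the 4 libraries compared, the replicate block, and leaving out each library). Genes called were 7, 10 and 10 with DESeq2 for the hemizygous, homozygous and edited-against-edited comparisons. Leaving out 1 library gave 0 to 2, 0 to 1 and 0 to 3 calls, with the lone library of a genotype assumed to vary like the others; the cause was not tested. With the replicate block they were 1, 0 and 1, and 0 members. With that block the homozygous log2 value of TET3 was -0.32, with the lowest edgeR adjusted p of the members (0.402). Those of TET1 and UHRF1 were -0.21 (edgeR adjusted p = 0.468) and -0.20 (adjusted p = 0.533). Same-numbered libraries deviated together across genes (correlations 0.769, 0.380 and 0.506 over 16199 genes), which with 2 numbers does not establish a pairing. DNMT1 in hemizygous cells turned from -0.0033 to 0.00090 with DESeq2 size factors and 0.00086 with DESeq2.

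Directions that turned when 1 library was left out, as ranges of log2 values, were in hemizygous cells DNMT1 (-0.0587 to 0.0579), DNMT3A (-0.0170 to 0.16), UHRF1 (-0.34 to 0.33), TET1 (-0.39 to 0.53), TET3 (-0.38 to 0.13) and TDG (-0.20 to 0.35). In homozygous cells they were DNMT1 (-0.24 to 0.0463), DNMT3B (-0.10 to 0.0776), TET1 (-0.60 to 0.14), TET2 (-0.52 to 0.0299) and TDG (-0.33 to 0.22). Between the edited genotypes they were DNMT1 (-0.23 to 0.0496), UHRF1 (-0.53 to 0.15), TET1 (-0.74 to 0.20), TET3 (-0.43 to 0.0885) and TDG (-0.27 to 0.0401). For replicate 1 against 2, leaving out 1 genotype gave 0 to 6252 genes and 0 to 4 members called, against 3322 and 3, and DNMT3A moved between -0.10 and 0.0310. Depth limits TET2 alone among the members, at 36 to 67 counts.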
